A study of Homo sapiens with 4 samples.

Results

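The mRNAs of centrosome and cilium genes were followed in RNA immunoprecipitation sequencing (RIP-seq) of KIAA1429, a subunit of the complex that writes N6-methyladenosine (m6A) into mRNA. The genes were taken by name, namely the centrosomal protein genes (CEP followed by a digit), the cilia and flagella associated protein genes (CFAP), the intraflagellar transport genes (IFT), the Bardet-Biedl syndrome genes (BBS), the gamma-tubulin complex genes (TUBGCP), PCNT and NME7. This rule found 70 of 13300 listed gene names, with 178 of 34975 listed transcripts. They comprised 36 CEP, 13 IFT, 8 BBS, 6 CFAP and 5 TUBGCP genes, PCNT and NME7.

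In RIP-seq an antibody pulls a protein out of a cell lysate together with its RNAs, which are then sequenced, and a precipitation with normal IgG shows the background. The 4 libraries came from HCCLM3, an established human hepatocellular carcinoma cell line, with 2 replicates precipitated with an antibody against KIAA1429 (KIAA1429 RIP) and 2 precipitated with IgG (IgG RIP). All libraries came from this single line, neither group carries another treatment in the labels, and no library of the unprecipitated lysate was used here. The question was which mRNAs are bound by KIAA1429.

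The centrosome is the main microtubule organising centre of animal cells. It is built of a pair of centrioles in a matrix that holds gamma-tubulin ring complexes, from which microtubules grow. The older centriole can dock at the cell membrane and grow a cilium, whose building material is carried by the IFT-A and IFT-B particles and whose membrane proteins are sorted by the BBSome. The m6A writer complex favours adenosines in GGAC and related motifs, and KIAA1429 (also named VIRMA) is known for guiding it to the region around the stop codon and the 3′ UTR.

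For this reason the GGAC nearest to the stop codon is shown for 8 of the 10 genes whose groups lay furthest apart. It is given as 30 bases of the transcript strand with GGAC in capitals. Only motifs whose 30 bases lie within a single exon were considered, so a nearer GGAC beside an exon junction can exist. The transcript is the matched coding one with the highest mean in the group where the gene was higher. For CEP63 and CEP57L1 no listed coding transcript with a stop codon could be matched to the annotation, and none is shown. The sequences are from GRCh37 with the GENCODE v44lift37 exons.
NME7-201: aagtcacaggttgGGACatttagacaagag
CFAP20-201: gaaactatgtggaGGACgatgcaaaaacat
IFT172-201: gcccagtgtgccaGGACgtgctgaaattca
IFT43-202: agacggagaaggaGGACcctgcggggcagg
CFAP36-203: ccatccccatcttGGACtttgtggaacaga
BBS7-201: tattggaaattctGGACagttatgaccaaa
CEP72-201: tggaatgtattcaGGACctgtagcttggtt
CEP295-201: gttacaaagtcaaGGACtcattgaagataa

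In NME7 (chr1:169101976-169102005, minus strand) and CFAP20 (chr16:58147845-58147874, minus strand), the A of this motif lay in the 3′ UTR, 35 and 72 bases after the first base of the stop codon. In IFT43 (chr14:76549877-76549906, plus strand), BBS7 (chr4:122747047-122747076, minus strand) and IFT172 (chr2:27667349-27667378, minus strand) it lay in the coding sequence, 26, 44 and 62 bases before the stop codon. In CFAP36 (chr2:55747014-55747043, plus strand) the nearest motif lay 578 bases before the stop codon, and it was the only GGAC of that transcript. In CEP72 (chr5:653399-653428, plus strand) it lay 148 bases after the first base of the stop codon. In CEP295 (chr11:93460518-93460547, plus strand) it lay 913 bases before it. A match to GGAC is a description of the sequence and not a measured m6A site.

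The libraries were close to each other as a whole. Summed FPKM (fragment counts set against transcript length and library size, the deposited unit) ran from 295573 to 340300, and 26.6% to 32.2% of the listed transcripts were at 0 in a library. The number of reads behind a value is unknown. Spearman correlations across 11361 gene totals were 0.849 for the IgG RIP pair, 0.872 for the KIAA1429 RIP pair and 0.833 to 0.885 between groups, so both replicate pairs lay within the range found between groups. The 7 hepatocyte markers checked were listed at 17.7 to 143 FPKM. Of the 5 markers of other cells, CD68 was listed at 28.7 to 72.2 FPKM and the other 4 were not listed.

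The centrosome and cilium mRNAs made up a similar share of all 4 libraries, with overlapping groups. Their summed FPKM came to 426 and 338 in IgG RIP, beside 436 and 419 in KIAA1429 RIP, which is 0.144% and 0.107% against 0.129% and 0.123% of all FPKM. No gene passed the test. The genes with the highest fold changes and groups that did not overlap were CFAP20, NME7, IFT172, CFAP36, IFT43 and CEP63, in that order. By family, the median log2 fold change was -0.12 for the 31 CEP genes tested, 0.28 for the 13 IFT genes, -0.03 for the 8 BBS genes, -0.13 for the 5 TUBGCP genes and 2.18 for the 3 CFAP genes.

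Of the 70 genes, 62 averaged 1 FPKM or more across the libraries and were tested, within a fit over all 11361 gene totals at that level. Fold changes are given as the difference of the group means of log2(FPKM + 1), KIAA1429 RIP minus IgG RIP, on which differences between low values come out smaller than their ratio. A gene was called at a log2 fold change beyond 1, in either direction, with an adjusted p under 0.05. The study set the same cut-offs for RIP-seq, but for enrichment only and with DESeq, a test for read counts. It reported enriched transcripts in that way. Limma on log2(FPKM + 1) is another test on another scale, so the counts given here are not the outcome of the study's test. By limma with Benjamini-Hochberg adjustment, 0 of the 62 genes were called in either direction, and 0% of all gene totals were called. The lowest adjusted p was 0.648 among the 62 genes and 0.515 among all gene totals. At an unadjusted p under 0.05 there were 5 of the 62 genes with a log2 fold change above 1 (8.06%), against 2.34% of all gene totals, and 0 genes with one below -1, against 1.19%. Without a limit on size these were again 5 higher and 0 lower genes, against 3.17% and 1.43% of all gene totals. The labels do not say whether replicates came from separate cultures, so these p-values measure only the spread between these libraries, which may be technical.

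Counted by direction in every library, 13 of the 62 genes (21%) had both KIAA1429 RIP values above both IgG RIP values, against 16.6% of all gene totals. The reverse held for 8 genes (12.9%), against 15.2%. With the further condition of a log2 fold change above 1 there were 8 genes (12.9%), against 4.06% of all gene totals. For a log2 fold change below -1 there were 2 genes (3.23%), against 2.68%. The 62 genes had a median level of 4.28 FPKM, against 8.7 FPKM for all gene totals, and shares at an equal level were not compared. NME7 entered the list as a gene named on its own, and the genes were chosen with earlier results of these data known. None of the shares given here, by gene or by transcript, is a test of these genes as a set. For 1 gene alone, an exact permutation test over 2 and 2 libraries has p = 0.333 as its lowest value (two-sided). The median log2 fold change of the 62 genes was -0.01, with 29 above 0 and 33 below, beside a median of 0.02 for all gene totals. For 37 genes it was within 0.5 of 0.

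**Figure D1:**
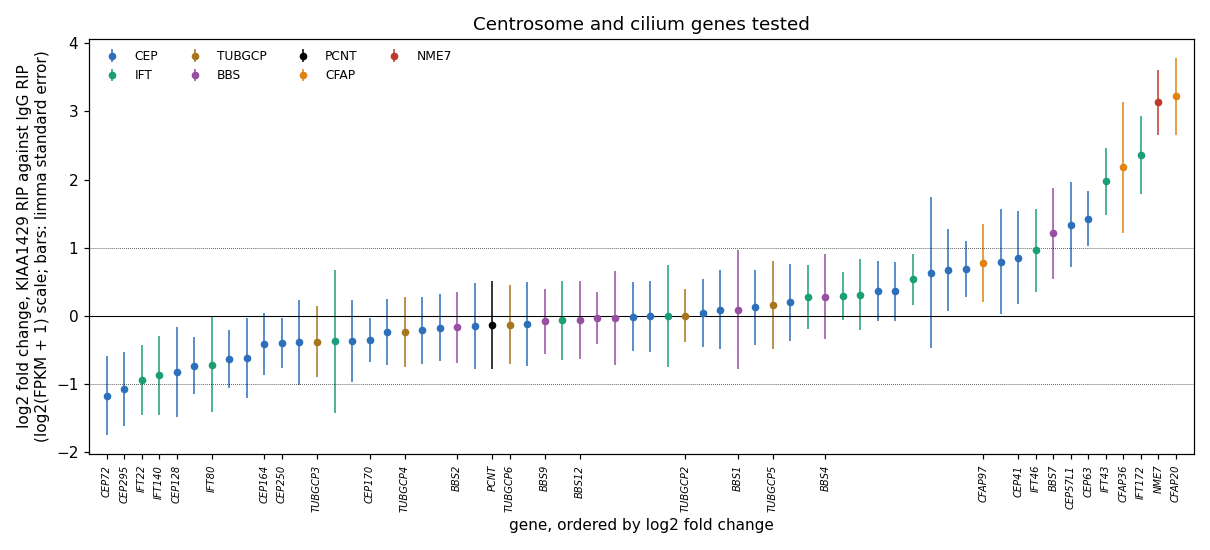
Log2 fold change of each of the 62 genes tested (y axis, KIAA1429 RIP against IgG RIP on the log2(FPKM + 1) scale), ordered from lowest to highest along the x axis, coloured by gene family and labelled for the genes named by rule. Points are limma estimates and bars are their standard errors. The values run from -1.17 for CEP72 to 3.22 for CFAP20, 8 points lie above the dotted line at 1, and 37 lie within 0.5 of 0.

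NME7, a kinase-like protein of the nucleoside diphosphate kinase family that binds the gamma-tubulin ring complex, had among the highest fold changes of all gene totals tested. It was listed at 1.47 and 0.588 FPKM in IgG RIP and at 19.1 and 14.1 FPKM in KIAA1429 RIP. Both KIAA1429 RIP libraries lay far above both IgG RIP libraries, with means of 16.6 ± 3.55 against 1.03 ± 0.626 FPKM (SD, n = 2 each). The log2 fold change was 3.14 (SE 0.48), rank 10 of 11361 gene totals. The unadjusted limma p was 0.000342 and the adjusted p was 0.648. The gene lies on the minus strand of chromosome 1 (169101769 to 169337205). Its exons share 287 of 1621 bases with ATP1B1 on the other strand, and the sources do not say whether counting used strand. ATP1B1 itself was listed at 23.5 and 21.5 FPKM in IgG RIP and at 11.2 and 14.3 FPKM in KIAA1429 RIP, the opposite order.

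The transcripts of NME7 were also higher in KIAA1429 RIP, with the exception of NME7-203 in replicate 2. NME7-201, the coding transcript shown above, was listed at 0 in both IgG RIP libraries and at 7.99 and 9.94 FPKM in KIAA1429 RIP, the lowest adjusted p of the transcripts of these genes (0.582, limma). NME7-203 was listed at 1.47 and 0 FPKM in IgG RIP and at 9.36 and 0 FPKM in KIAA1429 RIP. In the GENCODE v44lift37 exons these 2 transcripts share 1441 bases, with 31 bases found only in NME7-201 and 149 only in NME7-203. NME7-205, a processed transcript without a stop codon, was listed at 0 and 0.588 FPKM in IgG RIP and at 1.76 and 4.14 FPKM in KIAA1429 RIP.

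CFAP20 is a protein of the ciliary axoneme that joins the tubules of its doublets. It had the highest log2 fold change of the 62 genes with a pseudocount of 1, no further normalization, all libraries and all listed transcripts. This order changed with the processing. Its single listed transcript was at 1.26 and 0.00826 FPKM in IgG RIP and at 13.6 and 12.6 FPKM in KIAA1429 RIP. The groups were far apart and the KIAA1429 RIP pair was close. The log2 fold change was 3.22 (SE 0.56, rank 9 of 11361), with an unadjusted p of 0.00075 and an adjusted p of 0.885. CFAP20 lies on the minus strand of chromosome 16 (58147492 to 58163354).

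CFAP36, which binds the ciliary GTPase ARL3, was listed at 8.19 and 0 FPKM in IgG RIP and at 11.6 and 14.0 FPKM in KIAA1429 RIP. Its groups did not overlap, but IgG RIP replicate 2 decided the size of the difference. The log2 fold change of 2.18 (SE 0.96, unadjusted p = 0.0581, adjusted p = 0.997) became 0.58 without that library. The third CFAP gene tested, CFAP97, was listed at 19.6 and 6.08 FPKM in IgG RIP and at 14.2 and 27.1 FPKM in KIAA1429 RIP. Its groups overlapped, with a log2 fold change of 0.77 (SE 0.58) that was 0.00464 without IgG RIP replicate 2 and 1.54 without IgG RIP replicate 1.

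**Figure D2:**
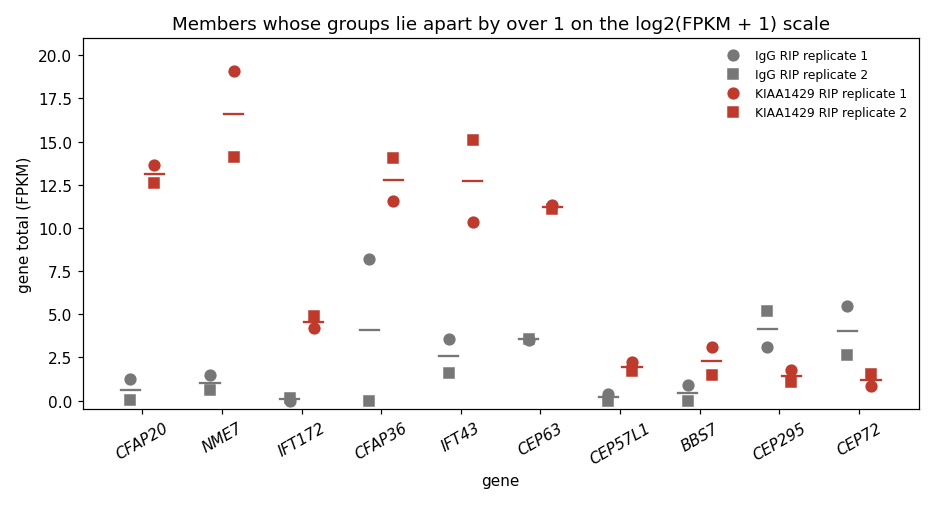
Gene totals in FPKM (y axis) of the 10 genes whose groups did not overlap and whose log2 fold change was beyond 1 (x axis, ordered by log2 fold change). Grey symbols are IgG RIP and red symbols KIAA1429 RIP, circles are replicate 1, squares are replicate 2 and short lines are group means. NME7 and CFAP20 are at most 1.47 FPKM in IgG RIP and at least 12.6 FPKM in KIAA1429 RIP, while CFAP36 has 1 IgG RIP library at 8.19 FPKM and the other at 0.

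All 13 intraflagellar transport genes were tested and 0 were called. Groups did not overlap on the higher side for 4 of them (IFT172, IFT43, IFT20 and IFT52, 30.8% against 16.6% of all gene totals) and on the lower side for 2 (IFT22 and IFT80, 15.4% against 15.2%). IFT172, the largest IFT-B subunit, was listed at 0 and 0.170 FPKM in IgG RIP and at 4.23 and 4.88 FPKM in KIAA1429 RIP. It was close to absent from the IgG RIP and present at a similar level in both KIAA1429 RIP libraries. The log2 fold change was 2.36 (SE 0.57, rank 34), with an unadjusted p of 0.00444 and an adjusted p of 0.901. The gene lies on the minus strand of chromosome 2 (27667238 to 27712640).

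IFT43, a small IFT-A subunit on the plus strand of chromosome 14 (76452096 to 76550092), was listed at 3.57 and 1.58 FPKM in IgG RIP and at 10.4 and 15.1 FPKM in KIAA1429 RIP. The groups did not overlap, with means of 2.58 ± 1.40 and 12.7 ± 3.34 FPKM (SD, n = 2 each). On the log2 scale it was 1.98 higher (SE 0.49), with an unadjusted p of 0.00505 and an adjusted p of 0.946. The coding transcript IFT43-202 was listed at 0 in both IgG RIP libraries and at 4.89 and 14.6 FPKM in KIAA1429 RIP. The processed transcript IFT43-204 had the reverse pattern, at 3.57 and 0.971 FPKM in IgG RIP and at 0 in both KIAA1429 RIP libraries. In the GENCODE v44lift37 exons these 2 transcripts share 208 bases, of 816 in IFT43-202 and 684 in IFT43-204. The other coding transcript, IFT43-212, was listed at 0 and 0.613 FPKM in IgG RIP and at 5.46 and 0.425 FPKM in KIAA1429 RIP.

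IFT46, an IFT-B subunit, also had transcripts with opposite orders, under a gene total whose groups overlapped. The total stood at 1.28 and 3.87 FPKM in IgG RIP, against 8.0 and 3.66 FPKM in KIAA1429 RIP, with a log2 fold change of 0.96 (SE 0.61) that was 0.41 without IgG RIP replicate 1, 0.48 without KIAA1429 RIP replicate 1 and 1.51 without IgG RIP replicate 2. In IgG RIP it came from IFT46-202 alone, and in KIAA1429 RIP from IFT46-201 alone. IFT46-201 was listed at 0 in both IgG RIP libraries and at 8.0 and 3.66 FPKM in KIAA1429 RIP, while IFT46-202 was listed at 1.28 and 3.87 FPKM in IgG RIP and at 0 in both KIAA1429 RIP libraries. In the GENCODE v44lift37 exons, IFT46-201 holds all 1562 bases of IFT46-202 and 257 bases of its own, so only a small part tells them apart. The listed locus of IFT46-202 (118415243 to 118436791) reaches beyond that of IFT46-201 (118415258 to 118436750) at both ends. The transcript models behind the FPKM can therefore differ from these exons.

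On the lower side, IFT22, a small GTPase-like IFT-B subunit on chromosome 7, was listed at 11.3 and 15 FPKM in IgG RIP and at 3.68 and 10.4 FPKM in KIAA1429 RIP, with a log2 fold change of -0.94 (SE 0.51). The difference rested on KIAA1429 RIP replicate 1, since it was -0.30 without that library. Its transcript IFT22-204 was listed at 6.74 and 6.33 FPKM in IgG RIP and at 0 in both KIAA1429 RIP libraries (unadjusted p = 0.00617, adjusted p = 0.696, limma). IFT22-211 had the reverse order with groups apart, at 0.894 and 0.00102 FPKM in IgG RIP and at 3.68 and 1.58 FPKM in KIAA1429 RIP. The groups of IFT22-201 overlapped, at 3.62 and 8.27 FPKM in IgG RIP and at 0 and 6.19 FPKM in KIAA1429 RIP. Exons of IFT22 share 1434 of 2439 bases with a gene on the other strand. Exon bases shared with other annotated genes also came to 48.8% for IFT80, 45% for TUBGCP4, 40.2% for BBS2 and 12.4% for CEP72. IFT140, the IFT-A subunit with overlapping groups, was listed at 14.3 and 5.02 FPKM in IgG RIP and at 3.14 and 5.61 FPKM in KIAA1429 RIP, with a log2 fold change of -0.88 (SE 0.58) that became -0.20 without IgG RIP replicate 1. Its short transcript IFT140-209 was listed at 10.2 and 3.25 FPKM in IgG RIP and at 0 and 1.33 FPKM in KIAA1429 RIP. IFT80, an IFT-B subunit, was listed at 1.65 and 1.63 FPKM in IgG RIP and at 1.58 and 0 FPKM in KIAA1429 RIP, with a log2 fold change of -0.72 (SE 0.70) that was -0.03 without KIAA1429 RIP replicate 2, where it was listed at 0, and -1.40 without KIAA1429 RIP replicate 1.

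By particle, the median log2 fold change was 0.29 for the 10 IFT-B genes among these and -0.07 for the 3 IFT-A genes, beside 0.02 for all gene totals. Of the IFT-B genes, 3 had groups that did not overlap on the higher side and 2 on the lower side, and of the IFT-A genes 1 and 0, beside 16.6% and 15.2% of all gene totals, and 0 were called in either particle.

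Among the 36 CEP genes, 31 were tested and 0 were called. Groups did not overlap on the higher side for 5 (16.1%) and on the lower side for 6 (19.4%), near the 16.6% and 15.2% of all gene totals. The higher ones were CEP63, CEP57L1, CEP41, CEP70 and CEP89, and the lower ones included CEP72, CEP295, CEP128, CEP170B and CEP170. CEP63, which recruits CEP152 to the parent centriole for duplication, was listed at 3.53 and 3.55 FPKM in IgG RIP and at 11.3 and 11.1 FPKM in KIAA1429 RIP. Both pairs were close, with means of 3.54 ± 0.0165 and 11.2 ± 0.186 FPKM (SD, n = 2 each). The log2 fold change was 1.43 (SE 0.40), with an unadjusted p of 0.00973 and an adjusted p of 0.993, and it stayed between 1.41 and 1.44 with each library left out in turn. CEP63 lies on the plus strand of chromosome 3 (134204585 to 134293855).

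The close pairs of CEP63 were sums of different transcripts. CEP63-210 was listed at 0 in both IgG RIP libraries and at 3.40 and 7.91 FPKM in KIAA1429 RIP. CEP63-212 was listed at 0 in both IgG RIP libraries and at 5.59 and 0.0300 FPKM in KIAA1429 RIP. In IgG RIP, most of the total was CEP63-204 in replicate 1 (3.35 FPKM) and CEP63-201 in replicate 2 (3.16 FPKM), which were each at 0 in the other IgG RIP library.

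CEP57L1, a paralogue of the centrosomal protein CEP57, was listed at 0.366 and 0 FPKM in IgG RIP and at 2.24 and 1.70 FPKM in KIAA1429 RIP. The groups did not overlap, at low levels, with a log2 fold change of 1.34 (SE 0.63, unadjusted p = 0.0704). CEP41, a ciliary protein needed for tubulin glutamylation, was listed at 1.51 and 0 FPKM in IgG RIP and at 1.99 and 1.75 FPKM in KIAA1429 RIP, with a log2 fold change of 0.86 (SE 0.69) that was 0.19 without IgG RIP replicate 2 and 1.52 without IgG RIP replicate 1.

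Of the lower CEP genes, CEP72, which helps to recruit gamma-tubulin complexes, was listed at 5.46 and 2.64 FPKM in IgG RIP and at 0.831 and 1.52 FPKM in KIAA1429 RIP. The groups did not overlap, with means of 4.05 ± 1.99 and 1.18 ± 0.488 FPKM (SD, n = 2 each), a log2 fold change of -1.17 (SE 0.58) and an unadjusted p of 0.0828. It was -0.76 without IgG RIP replicate 1. CEP295, needed for turning new centrioles into centrosomes, was listed at 3.10 and 5.16 FPKM in IgG RIP and at 1.76 and 1.06 FPKM in KIAA1429 RIP. Its log2 fold change was -1.08 (SE 0.55, unadjusted p = 0.0896). Its exons share 1318 of 8053 bases with genes on the other strand, of which TAF1D was listed at 1.79 and 0.898 FPKM in IgG RIP and at 7.72 and 12.2 FPKM in KIAA1429 RIP. CEP128, a protein of the subdistal appendages of the older centriole, was listed at 3.77 and 1.08 FPKM in IgG RIP and at 0.963 and 0.617 FPKM in KIAA1429 RIP, with a log2 fold change of -0.82 (SE 0.66) that was -0.22 without IgG RIP replicate 1 and -1.42 without IgG RIP replicate 2.

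CEP250, the linker protein that holds the pair of centrioles together, was among the candidate genes that the study picked partly from these libraries. Its values are therefore no independent evidence. The paper counted it among the transcripts enriched in the KIAA1429 precipitate. The gene total here was not higher in KIAA1429 RIP, and the reason for this difference was not tested. CEP250 was listed at 27.4 and 19.0 FPKM in IgG RIP and at 20.7 and 14.1 FPKM in KIAA1429 RIP. The groups overlapped, with means of 23.2 ± 5.95 and 17.4 ± 4.68 FPKM (SD, n = 2 each), a log2 fold change of -0.40 (SE 0.36), an unadjusted p of 0.31 and an adjusted p of 0.997. The fold change was -0.15 without IgG RIP replicate 1, -0.14 without KIAA1429 RIP replicate 2, -0.65 without IgG RIP replicate 2 and -0.66 without KIAA1429 RIP replicate 1. CEP250 lies on the plus strand of chromosome 20 (34042985 to 34107108).

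The 8 listed transcripts of CEP250 differed among themselves. The full-length CEP250-202, with 36 exons and 15422 bases, was listed at 6.51 and 5.66 FPKM in IgG RIP and at 4.67 and 4.55 FPKM in KIAA1429 RIP. CEP250-208, a short transcript at the start of the gene, was also lower, at 7.29 and 5.38 against 1.84 and 2.93 FPKM. CEP250-203, which begins within the same stretch, was higher, at 1.64 and 0.359 FPKM in IgG RIP and at 5.72 and 3.15 FPKM in KIAA1429 RIP. The groups of each of these 3 transcripts did not overlap. CEP250-212, a processed transcript, overlapped between groups (4.26 and 3.56 against 5.76 and 3.48 FPKM). The others were each listed in 1 group only, CEP250-204 (4.57 and 0 FPKM), CEP250-201 (0.430 and 3.59 FPKM) and CEP250-210 (2.74 and 0.474 FPKM) in IgG RIP and CEP250-214 (2.73 and 0 FPKM) in KIAA1429 RIP.

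The other abundant centrosomal mRNAs, CEP170 and CEP164, were listed at over 10 FPKM in every library. CEP170, a subdistal appendage protein with 11 listed transcripts, was at 25.3 and 27.2 FPKM in IgG RIP and at 24.0 and 17.2 FPKM in KIAA1429 RIP, a log2 fold change of -0.35 (SE 0.32) with groups that did not overlap. It was -0.12 without KIAA1429 RIP replicate 2 and -0.58 without KIAA1429 RIP replicate 1, and -1.22 for its most abundant transcript alone. CEP170-214, a processed transcript of it, was listed at 2.70 and 5.86 FPKM in IgG RIP and at 1.497 and 0 FPKM in KIAA1429 RIP. Other transcripts of CEP170 had the reverse order with groups apart. The coding CEP170-203 was at 0.762 and 0 FPKM in IgG RIP and at 10.8 and 2.67 FPKM in KIAA1429 RIP. Its log2 fold change was 2.31 (unadjusted p = 0.0449, adjusted p = 0.879, limma). CEP170-222 was at 0 and 1.59 against 2.51 and 1.76 FPKM. CEP164, a distal appendage protein needed for docking the centriole at the membrane, was at 21.9 and 29.0 FPKM in IgG RIP and at 11.9 and 28.9 FPKM in KIAA1429 RIP, a log2 fold change of -0.42 (SE 0.46). CEP164 has a pseudogene copy, CEP164P1, that was listed apart, and how reads were split between near copies is not given in the sources used here.

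PCNT, the large scaffold of the pericentriolar matrix, was listed at 7.27 and 2.29 FPKM in IgG RIP and at 5.91 and 2.27 FPKM in KIAA1429 RIP. The groups overlapped, with a log2 fold change of -0.13 (SE 0.65), and replicate 1 was above replicate 2 in both groups. The coding PCNT-201 was at 7.27 and 0 FPKM in IgG RIP and at 5.86 and 2.13 FPKM in KIAA1429 RIP. PCNT-205, listed as a processed transcript, was at 0 and 2.29 FPKM in IgG RIP and at 0.0427 and 0.145 FPKM in KIAA1429 RIP. In the GENCODE v44lift37 annotation it has 47 exons, 10485 bases and a stop codon, beside 47 exons and 10526 bases for PCNT-201. PCNT-201 alone had a log2 fold change of 0.69.

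The 5 TUBGCP genes encode the gamma-tubulin complex proteins that form the ring with gamma-tubulin, and the groups of all 5 overlapped. Their median log2 fold change was -0.13. TUBGCP2 was the most abundant mRNA of all the genes chosen, at 20.9 and 43.0 FPKM in IgG RIP and at 30.9 and 29.4 FPKM in KIAA1429 RIP. TUBGCP3, the partner of TUBGCP2 in the small complex, was at 15.8 and 7.93 FPKM in IgG RIP and at 12.7 and 5.49 FPKM in KIAA1429 RIP. TUBGCP4, TUBGCP5 and TUBGCP6, which are found in the ring only, were listed between 0.669 and 4.31 FPKM in all libraries. The log2 fold changes of the 5 genes ran from -0.38 (TUBGCP3) to 0.16 (TUBGCP5), with standard errors from 0.40 to 0.65.

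The 8 BBS genes had a median level of 1.66 FPKM, and the groups of all but BBS7 overlapped. BBS7, a BBSome subunit on the minus strand of chromosome 4 (122745595 to 122791652), was listed at 0.883 and 0 FPKM in IgG RIP and at 3.09 and 1.47 FPKM in KIAA1429 RIP. The groups did not overlap, with a log2 fold change of 1.21 (SE 0.67, unadjusted p = 0.113), which was 0.76 without IgG RIP replicate 2. The other BBSome genes named here overlapped between groups, with log2 fold changes of 0.28 for BBS4, 0.09 for BBS1, -0.08 for BBS9 and -0.17 for BBS2. BBS1 was listed at 0 in replicate 1 of both groups and at 1.85 and 2.23 FPKM in replicate 2, and 97.9% of its exon bases are shared with other annotated genes. BBS12, a chaperonin-like protein that helps to assemble the BBSome, had a log2 fold change of -0.06 (SE 0.57). The median over the 6 BBSome genes was 0.03.

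**Figure D3:**
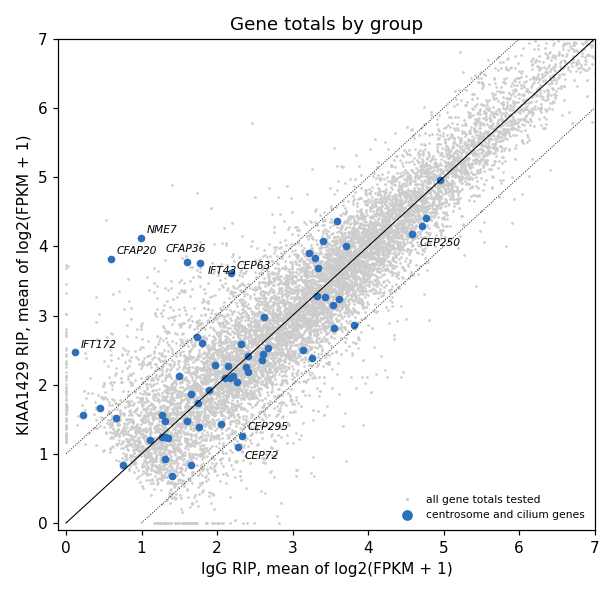
Group means of log2(FPKM + 1) for all gene totals tested (grey) and the 62 centrosome and cilium genes (blue), IgG RIP on the x axis and KIAA1429 RIP on the y axis, both cut at 7. The solid line marks equal values and the dotted lines a difference of 1. NME7, CFAP20, IFT172, IFT43, CFAP36 and CEP63 lie above the upper dotted line, CEP72 and CEP295 below the lower one, and CEP250 between them.

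The remaining 8 genes were under a mean of 1 FPKM and were not tested. They were CEP44, CEP126, CEP152, CEP164P1, CEP295NL, CFAP53, CFAP69 and CFAP161, at no more than 2.03 FPKM in any library. CEP164P1, CFAP69 and CFAP161 were listed at 0 in both IgG RIP libraries. In KIAA1429 RIP, CFAP69 was at 1.60 and 0.916 FPKM, CEP164P1 at 0.458 and 0.619 FPKM and CFAP161 at 1.95 and 0 FPKM. Every listed transcript reached a minimum mean in at least 1 group. A gene or transcript at 0 in both libraries of a group could therefore appear only as higher in the other group. CEP152, CEP295NL and CFAP53 were lower in both KIAA1429 RIP libraries.

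At the level of transcripts, 108 of the 178 had a mean of at least 1 FPKM and were tested in a fit over 23375 transcripts. By limma, 0 of the 108 were called, and 0% of all transcripts were called. At an unadjusted p under 0.05, 8 were higher (7.41%, against 3.03% of all transcripts) and 2 lower (1.85%, against 2.33%). Groups did not overlap on the higher side for 20 transcripts (18.5%), against 15.2% of all transcripts, and on the lower side for 17 (15.7%), against 14.5%. With a log2 fold change above 1 these were 17 (15.7%), against 8.45%, and with one below -1 they were 9 (8.33%), against 7.79%. Of the 26 genes with at least 2 transcripts tested, 8 (30.8%) had transcripts both above 1 and below -1, against 24.5% of the 5754 genes with as many, namely CEP170, CEP250, CFAP97, IFT22, IFT27, IFT43, IFT46 and IFT52. How FPKM was divided among overlapping transcripts is not given in the sources used here.

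The transcripts of these genes were described by their annotated sequence. Over 55 tested genes whose most abundant coding transcript could be matched to the annotation, the median length was 3431 bases with 16 exons, against 2986 bases and 8 exons over all 9377 genes matched in this way. Their median GC content was 43.5%, against 48.9%. GGAC occurred 3.14 times per kilobase at the median, against 3.71, counted on the transcript strand. In a window of 203 bases around the stop codon, GGAC was present in 23 of 49 genes (46.9%), against 59.1% of 8664 genes. The 4 sequences of NME7, CFAP20, IFT43 and BBS7 shown above belong to these 23.

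Fold changes were also set against these sequence features. The Spearman correlation of log2 fold change with transcript length was -0.26 over the 55 genes, beside -0.23 over the 9377 genes, with GC content -0.22 and -0.14, and with GGAC per kilobase -0.19 and -0.09. These are across genes of the same 4 libraries, which share the length scaling of FPKM and are not independent replicates. The 6 matched genes with groups apart and a log2 fold change above 1 had a median transcript length of 1376 bases.

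Of 101 other genes of the same pathways, outside the name rule, 93 were listed, 88 were tested and 0 were called. Groups did not overlap on the higher side for 10 (11.4%, against 16.6% of all gene totals) and on the lower side for 14 (15.9%, against 15.2%). Their median log2 fold change was 0.13. At an unadjusted p under 0.05 there were 2 (2.27%), both higher, against 3.17% of all gene totals. MZT2B, a small subunit of the gamma-tubulin ring complex, was listed at 65.9 and 101 FPKM in IgG RIP and at 137 and 150 FPKM in KIAA1429 RIP, a log2 fold change of 0.81 (SE 0.32, unadjusted p = 0.0398, adjusted p = 0.997). Its near copy MZT2A could share reads with it. DYNC2LI1, the light intermediate chain of the dynein that returns IFT particles to the cell body, was listed at 0.763 and 4.55 FPKM in IgG RIP and at 11.7 and 6.52 FPKM in KIAA1429 RIP, a log2 fold change of 1.64 (SE 0.66, unadjusted p = 0.042, adjusted p = 0.997).

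A RIP value is a share of the precipitated RNA, so more of an mRNA and less of the other RNAs in a precipitate cannot be told apart. Nor can a difference in the number of cells that hold an mRNA be told apart from one in mRNA per cell.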

How the data were processed

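RIP-seq was measured in HCCLM3 cells, with 2 KIAA1429 RIP and 2 IgG RIP libraries grouped by the labels. The authors selected poly(A) RNA, fragmented it chemically, primed it with random hexamers, sequenced it and aligned reads to GRCh37/hg19 with HISAT2 (the submitters' processing notes list Bowtie2 2.1.0 without a role), and deposited FPKM per transcript. The FPKM estimator, annotation release and strand setting are not given in the sources used here. Every listed transcript had a group mean of at least 0.500 FPKM in one group. Depth is unknown, so precision was judged from replicates.

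FPKM was summed per gene name. Totals averaging 1 FPKM or more were put on the log2(FPKM + 1) scale and compared by limma 3.58.1 under R 4.3.3 (eBayes with trend, two-sided, Benjamini-Hochberg over all totals), and transcripts likewise. The fit was run on simulated data to check that it returns the size of a known rise. Recovery of calls was required only at a spread far below that of these libraries. This check therefore does not show how many real differences would be called with 2 libraries per group. Other values used Python 3.11.15, numpy 2.4.6, pandas 2.3.3 and scipy 1.17.1. Transcripts were matched by identifier to GENCODE v44lift37 where both ends lay within 500 bases of the listed locus (151 of 178).

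The genes and lists were chosen with earlier results of these data known. Named are CEP250, PCNT, NME7, the TUBGCP genes, the 5 most abundant genes, the 3 highest and 3 lowest log2 fold changes of each family, genes with an unadjusted p under 0.05, and genes with groups apart and a log2 fold change beyond 1. Named transcripts are all those of CEP250, PCNT and NME7 and the 5 highest and 5 lowest with groups apart; further ones of IFT43, IFT46 and CEP63, and the other genes listed by name, were added after their values were seen, and 1 gene is not reported here. Alternatives were pseudocounts of 0.1 and 0.01, no filter and one at 5 FPKM, median scaling, quantile normalization, protein_coding transcripts only, the most abundant transcript, limma without trend, a replicate block, and each library left out.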

Additional observations from a re-analysis of the deposited data

How the results depend on the processing

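Under the alternatives without the replicate block, limma called 0 of these genes. For transcripts, which were not run with a pseudocount of 0.01 or quantile normalization, it called 0 with a pseudocount of 0.1, both filters, median scaling, no trend and each library left out. The count of genes with groups apart on the lower side was 4 in place of 8 with a filter at 5 FPKM, where 26 genes were tested. With fewer libraries groups lie apart more easily. The count on the higher side (13) was 18 to 28 with each library left out in turn, reaching 28 without IgG RIP replicate 1, 24 without KIAA1429 RIP replicate 2 and 20 without KIAA1429 RIP replicate 1. The count on the lower side (8) was 14 to 24, with 24 without IgG RIP replicate 2, 21 without KIAA1429 RIP replicate 1, 15 without IgG RIP replicate 1 and 14 without KIAA1429 RIP replicate 2.

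Small log2 fold changes changed sign. TUBGCP2 was -0.00863 with median scaling, -0.0433 with quantile normalization and -0.15 with protein_coding transcripts only. PCNT was 0.69 with protein_coding transcripts only and with the most abundant transcript, both of which leave out PCNT-205. The most abundant transcript also gave 0.25 for BBS2 and 0.0878 for TUBGCP4. With each library left out in turn, the log2 fold change ran from -0.75 to 0.94 for BBS1, -0.25 to 0.12 for BBS12, -0.82 to 0.48 for BBS2, -0.25 to 0.81 for BBS4, -0.22 to 0.0575 for BBS9, -1.02 to 0.19 for CEP164, -0.80 to 0.53 for PCNT, -0.50 to 0.51 for TUBGCP2, -0.92 to 0.16 for TUBGCP3, -0.61 to 0.14 for TUBGCP4, -0.42 to 0.74 for TUBGCP5 and -0.48 to 0.22 for TUBGCP6. The cause was not tested. With 1 library left out, 24 of 31 named genes changed sign or moved by over 1.5 times for at least 1 library, and NME7, CFAP20, IFT172, IFT43, CEP63, CEP57L1 and CEP295 did not. A pseudocount of 0.1 moved 11 of them by that much, and 0.01 the same 11. At 0.1 and 0.01 the values were 5.11 and 6.43 for CFAP20, 4.82 and 6.75 for IFT172, 3.82 and 5.48 for CFAP36, 3.25 and 5.0 for CEP57L1, 2.84 and 4.5 for BBS7, 2.29 and 3.93 for CEP41, -1.29 and -1.38 for CEP128 and -2.08 and -3.71 for IFT80, the others being TUBGCP2, TUBGCP5 and TUBGCP6. The most abundant transcript moved 11 of 28, to 2.65 for CEP63, 3.26 for IFT43, 2.69 for IFT46, 0.69 for TUBGCP2, 0.51 for CEP41, -0.66 for CEP295, -1.22 for CEP170 and -2.18 for IFT140 beside those above. With protein_coding transcripts only, 6 moved, among them IFT43 (3.41) and CEP170 (-0.19). The place of CFAP20 as first of the named genes did not hold under each alternative. At a pseudocount of 0.01 IFT172 was higher. NME7 was higher with quantile normalization (3.08 against 3.02) and without IgG RIP replicate 2 (2.82 against 2.64). With the most abundant transcript, NME7 (3.31) and IFT43 (3.26) were both above CFAP20 (3.22). IFT43 was also higher with protein_coding transcripts only (3.41 against 3.22). NME7, CFAP20, IFT172, IFT43 and CEP63 kept a log2 fold change above 1 under each alternative that gave a value.

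The replicate numbers are shared by the groups, but no label says that they mark a shared culture or day, and there are only 2 pairs. Deviations of same-numbered libraries from their group means correlated at 0.187 over gene totals and 0.0299 over transcripts. With the replicate number as a block, limma called 2 of these genes, NME7 (adjusted p = 0.025) and CFAP20 (adjusted p = 0.037), both higher, among 12 higher and 1 lower of all gene totals, and 0 of the transcripts. The unknown depth and the 2 libraries per group limit all of these values.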
